A study of Homo sapiens with 6 samples.

Results

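The annexins of human cells were examined in RNA-seq libraries of AN3CA, an endometrial cancer line that expresses *PAX2*, with and without knockdown (KD) of that gene. Of 10 annexin genes looked for by symbol, 8 had a row among the 17471 genes of the table: *ANXA1*, *ANXA2*, *ANXA4*, *ANXA5*, *ANXA6*, *ANXA7*, *ANXA9* and *ANXA11*. *ANXA3* and *ANXA13* had none and are not analysed here. *ANXA1* was selected on its difference between these same libraries, so its values are given as a description with no test. The others came in by family name.

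The control cells (shEV, 3 libraries) carried an empty lentiviral hairpin vector per the labels and the study's methods, although other passages of the study name a scrambled control. The KD cells (shPAX2, 3 libraries) carried a single hairpin against *PAX2*, a developmental transcription factor of the Müllerian duct and endometrial glands. Per the methods, transduced cells were selected with puromycin. Nothing states that the replicates were separate cultures, so the p-values measure the spread between these libraries, which may be technical.

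Annexins bind acidic membrane phospholipids, phosphatidylserine among them, when calcium is present. They share a conserved core and differ in their N-terminal ends, which bind partners such as the S100 proteins. ANXA1 is the annexin induced by glucocorticoids, restrains inflammation when it is released and binds formyl peptide receptors, and several other members help to reseal torn plasma membranes.

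Expression was given as TPM, reads scaled by gene length and library total. Whole reads could be recovered from these values and came to between 10730909 and 18221859 in the shEV libraries and between 19422615 and 29405787 in the shPAX2 libraries, so depth and group cannot be told apart. *PAX2* stood at 4.03, 3.66 and 2.74 TPM in shEV and at 0.916, 0.723 and 1.17 TPM in shPAX2, or 26.9% of the shEV mean. Genes with at least 0.5 TPM in at least 3 libraries, 13163 in all, were tested with limma on log2(TPM + 0.5). At a Benjamini-Hochberg adjusted p under 0.05, 42.8% of them passed, 30.5% lower and 12.2% higher in shPAX2. The median log2 fold change (shPAX2 minus shEV) over all genes tested was -0.10 on the TPM scale and 0.0053 after median-of-ratios scaling, which moved the share of lower genes among those that passed from 71.4% to 47.4%. Among the markers, *EPCAM*, *CDH1*, *KRT7*, *KRT8* and *KRT19* were each under 0.5 TPM in all libraries. The epithelial sum of 10.8 to 17.8 TPM was nearly all *KRT18*. The mesenchymal sum was 4857 to 5256 TPM in shEV and 4121 to 4308 TPM in shPAX2, most of it *VIM* (3750 to 4410 TPM over all libraries, limma adjusted p 0.0683). *COL1A2*, a fibrillar collagen chain in the same list, also moved with the groups, from 809 to 855 TPM in shEV to 360 to 439 TPM in shPAX2 (log2 fold change -1.11, SE 0.08, limma adjusted p 1.75e-05). In the rest of that list, *CDH2* was at most 0.0777 TPM, and *DCN* and *LUM* had no row. *COL1A1* averaged 1.02 TPM in shEV and 0.888 TPM in shPAX2 (limma adjusted p 0.717). Leukocyte markers summed to 1.05 to 1.60 TPM in shEV and 1.67 to 2.47 TPM in shPAX2, most of it *CD68*. *CD68* averaged 1.19 TPM in shEV and 2.02 TPM in shPAX2 and passed as higher without overlap (log2 fold change 0.59, limma adjusted p 0.0359). *PTPRC* was at 0 in 5 of 6 libraries, and endothelial markers summed to at most 0.0611 TPM. The part of these marker levels in any result was not tested.

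The stretch of DNA just before the start of *ANXA1* is shown because it differed in composition from those of its family members. *ANXA1* lies on the plus strand of chromosome 9 from 75766781 to 75785309 (GRCh37). RefSeq windows of 250 bases before an annotated start were found for all 8 annexins, 12 windows in all, and each matched GRCh37 exactly once. In the *ANXA1* window (chr9:75766531-75766780, plus strand, 5′ to 3′), the capitals mark a CCAAT box on the opposite strand, a CCAAT box on the gene's strand and a TATA box (TATAAA), in that order.
ANXA1: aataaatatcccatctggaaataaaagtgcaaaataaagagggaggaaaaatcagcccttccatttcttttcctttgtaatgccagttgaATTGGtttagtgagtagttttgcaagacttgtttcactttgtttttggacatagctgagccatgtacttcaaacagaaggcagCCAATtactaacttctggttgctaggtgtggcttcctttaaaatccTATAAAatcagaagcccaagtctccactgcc
Its GC content was 38.4%, against a median of 58.0% over 35116 RefSeq windows of the same length, and it held 0 CpG dinucleotides.

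The *ANXA5* window (chr4:122618136-122618385, minus strand) is the contrast, with its GC box (GGGCGG) in capitals. It had the highest GC content of the 12 windows, and the windows of *ANXA6*, the most abundant annexin in both groups, had 56.4% and 65.6%. Window composition was not tested against expression.
ANXA5: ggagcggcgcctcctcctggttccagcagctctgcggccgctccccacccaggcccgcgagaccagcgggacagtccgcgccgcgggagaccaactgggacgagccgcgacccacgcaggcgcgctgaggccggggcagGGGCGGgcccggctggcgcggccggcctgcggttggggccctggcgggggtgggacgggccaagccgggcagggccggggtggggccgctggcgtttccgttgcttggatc
The GC content of the *ANXA5* window was 78.8% and it held 31 CpG dinucleotides. The other annexin windows ranged from 50.0% to 78.0% GC and from 4 to 36 CpG dinucleotides, so that of *ANXA1* had the lowest GC content and the fewest CpG dinucleotides of the 12. Annotated exons covered 0 bases of the *ANXA1* window, 15 of the *ANXA5* window and 0 to 233 of the others. Some of the windows compared thus held annotated exon sequence.

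Both *ANXA1* and *ANXA2* had TATAAA from 31 to 26 bases before the start, here shown with the flanking bases from 45 to 16 before it.
ANXA1: ttcctttaaaatccTATAAAatcagaagcc
ANXA2: gaggatgtggcgggTATAAAagccccaccc
On both strands TATAAA was present in 10.7% of all windows and in 3 of the 12 annexin windows. CCAAT was present in 32.0% and 4, GGGCGG in 42.6% and 7, the AP-1 site TGACTCA in 4.20% and 1, and the paired domain core GCGTGAC in 2.20% and 2. The *ANXA1* window had none of the last 3 motifs in this stretch. A match is a run of letters and is not evidence of binding.

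*ANXA1* was high in every shEV library and low in every shPAX2 library. Its level in the control was 325 TPM (2442 reads) in replicate 1, 228 TPM (2817 reads) in replicate 2 and 241 TPM (3040 reads) in replicate 3. In the KD cells the level was 5.79 TPM (124 reads), 15.5 TPM (292 reads) and 13.8 TPM (188 reads), in the same order. The groups were far apart, and the lowest shEV library remained well above the highest shPAX2 library.

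Control libraries averaged 265 ± 52.9 TPM of *ANXA1* and KD libraries 11.7 ± 5.17 TPM (SD, n = 3 each), so that 4.42% of the shEV level remained. This is a 22.6-fold lower mean, and a log2 fold change of -4.54 (SE 0.43, 95% interval -5.67 to -3.40). With 0.5 added to every TPM, it was the second lowest log2 fold change among the 13163 genes tested. The added 0.5 shrinks falls to a low TPM the most, so this rank is tied to that scale. By the ratio of group means, *CAMK4* (67.4-fold), *CTGF* (47.8-fold) and *KITLG* (37.1-fold), described below, fell further than *ANXA1*, and *PLK2* (17.4-fold) fell less. *ANXA1* was selected for its fall, so its SE and interval describe the spread of these libraries and are not a test. In these bulk libraries, fewer cells with *ANXA1* RNA and less *ANXA1* RNA per cell cannot be told apart.

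Within shPAX2 the *ANXA1* libraries differed among themselves by more than counting error. Exact 95% counting intervals, which cover counting error only, were 4.82 to 6.90 TPM in replicate 1, 13.8 to 17.4 TPM in replicate 2 and 11.9 to 15.9 TPM in replicate 3. Replicate 1 was thus separate from the others and replicates 2 and 3 overlapped. The coefficient of variation of *ANXA1* was 44.3% in shPAX2 and 20.0% in shEV. The residual transcript was present in every KD library and was higher than 52.7% of the genes of the table in shPAX2, against 97.3% in shEV.

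**Figure D1:**
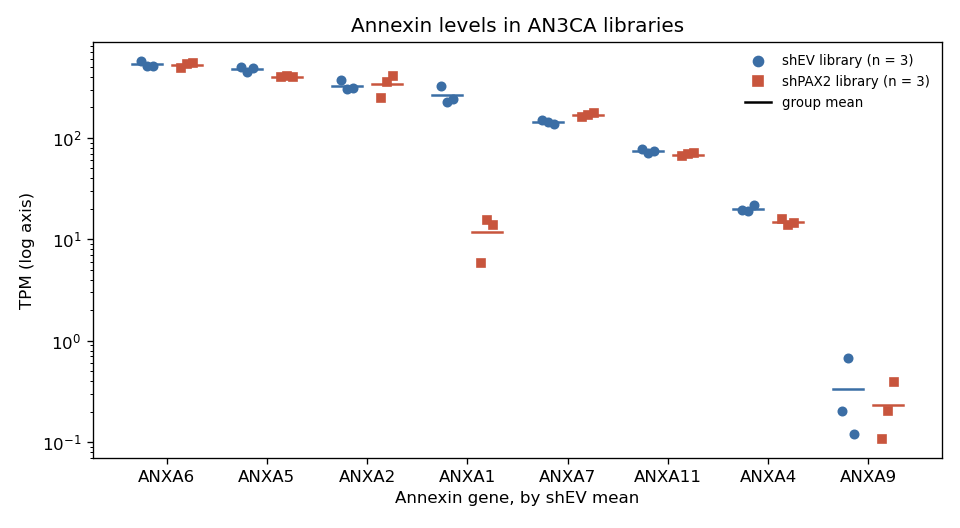
TPM of 8 annexin genes (log axis) in 3 shEV and 3 shPAX2 AN3CA libraries, each point a library and each line a group mean. *ANXA1* dropped from 228 to 325 TPM in shEV to 5.79 to 15.5 TPM in shPAX2, while the shPAX2 means of the other tested annexins were 73.9% to 118% of their shEV means.

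Levels were then ordered within each group, since TPM is per length. In shEV the order of the means was *ANXA6* (534 TPM), *ANXA5* (476), *ANXA2* (328), *ANXA1* (265), *ANXA7* (143), *ANXA11* (74.2), *ANXA4* (19.9) and *ANXA9* (0.336). Only *ANXA2* and *ANXA1* had overlapping libraries among the neighbours in that order. In shPAX2 *ANXA1* stood after *ANXA4*, and only *ANXA9* was lower. There the libraries of *ANXA5* and *ANXA2* overlapped, as did those of *ANXA4* and *ANXA1*, and the other neighbours did not.

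*ANXA1* made up 16.2%, 13.2% and 13.5% of the summed annexin TPM in the shEV libraries. It made up 0.417%, 0.992% and 0.846% in the shPAX2 libraries. The sum of the other 7 annexins was 1686, 1498 and 1544 TPM in shEV and 1385, 1546 and 1615 TPM in shPAX2, so without *ANXA1* the groups overlapped. *ANXA6* was the largest share in every library, from 28.3% to 30.0% in shEV and from 33.6% to 35.4% in shPAX2.

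**Figure D2:**
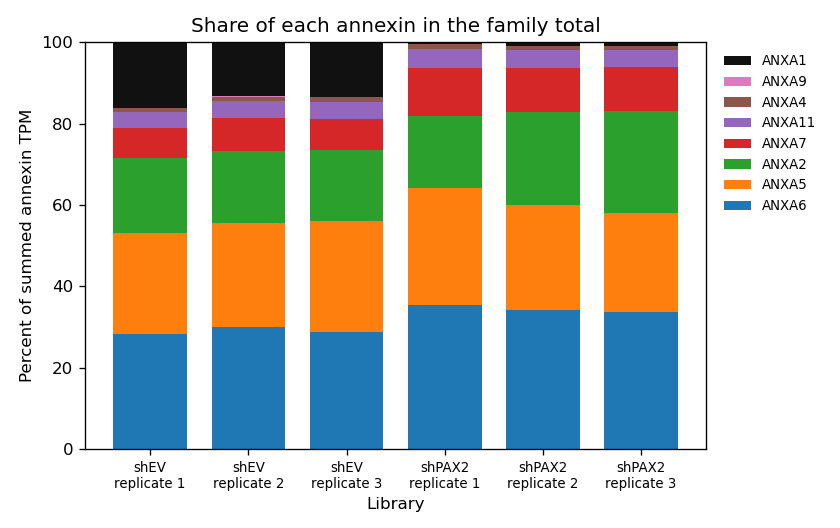
Percent of the summed annexin TPM taken by each of 8 annexin genes in each library. The black segment, *ANXA1*, fills 13.2% to 16.2% of the shEV bars and at most 0.992% of the shPAX2 bars; *ANXA9* is too low to be seen.

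Of the 6 tested annexins other than *ANXA1*, 2 passed as lower in shPAX2 (*ANXA4* and *ANXA5*), 1 passed as higher (*ANXA7*) and 3 did not pass (*ANXA2*, *ANXA6* and *ANXA11*). The share that passed, 50.0%, was near the background of 42.8% and is not a result about the family. None of the 6 passed the threshold of a log2 fold change of 1 or more in size, where the background was 4.54% (3.11% lower, 1.43% higher). By limma, 3 of the 6 had an unadjusted p under 0.05, and voom on the recovered reads also gave 3 at an adjusted p under 0.05 and 0 past the fold threshold. Their median log2 fold change was -0.07, beside -0.10 over all genes tested. In 4 of the 6 the libraries of a group all lay beyond those of the other, against 54.9% of all genes tested.

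*ANXA4*, a membrane-trafficking annexin that is raised in the secretory phase of the endometrium, fell the most among these. It stood at 19.4, 18.9 and 21.6 TPM in shEV and at 15.9, 14.0 and 14.4 TPM in shPAX2. The groups did not overlap, and 73.9% of the shEV mean remained. The log2 fold change was -0.42 (SE 0.08) and the limma adjusted p was 0.0028, and the call held in all 15 alternative settings. The gene (chromosome 2, 69871557 to 70054244, plus strand) overlaps *AAK1* on the opposite strand, which averaged 6.54 TPM. *AAK1* also passed as lower in shPAX2 (log2 fold change -0.32, SE 0.08, limma adjusted p 0.0128). The strand setting of the counting is not given in the sources used here, so reads of the pair could have been mixed.

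*ANXA5*, the phosphatidylserine-binding annexin used as a probe of dying cells, also fell (chromosome 4, 122589101 to 122618150, minus strand). It stood at 498, 443 and 488 TPM in shEV and at 401, 404 and 399 TPM in shPAX2, with no overlap. The shPAX2 mean was 84.3% of the shEV mean, a log2 fold change of -0.25 (SE 0.06, limma adjusted p 0.0118). After median-of-ratios scaling the log2 fold change was -0.13 and the adjusted p 0.0918, so the call was lost. Relative to the median of all genes the difference was -0.14.

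*ANXA7*, also called synexin and known for calcium-dependent membrane fusion, was the only tested annexin that rose. It stood at 150, 143 and 136 TPM in shEV and at 162, 167 and 175 TPM in shPAX2, and all shPAX2 libraries were above all shEV libraries. The mean was 17.7% higher in shPAX2 (log2 fold change 0.23, SE 0.06, limma adjusted p 0.0137), or 0.34 relative to the median of all genes. Without shEV replicate 3 the adjusted p was 0.0526, with a log2 fold change of 0.20. *ANXA7* lies on chromosome 10 from 75134859 to 75173834 on the minus strand.

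*ANXA2*, which forms a complex with S100A10 that gathers plasminogen at the cell surface, varied within shPAX2. It stood at 371, 303 and 312 TPM in shEV and at 247, 358 and 408 TPM in shPAX2. The shPAX2 libraries included both the lowest and the highest values, so the groups overlapped. The log2 fold change was 0.01 (95% interval -0.50 to 0.53, limma adjusted p 0.962), and its sign depended on the setting. The interval includes changes of up to 0.50 in either direction.

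Exact 95% counting intervals of *ANXA2* in shPAX2 were 241 to 253 TPM in replicate 1, 350 to 365 TPM in replicate 2 and 399 to 418 TPM in replicate 3, so the libraries differed by more than counting error. Replicate 1, the deepest library of the series, was the lowest for both *ANXA1* and *ANXA2*. The coefficient of variation was 24.5% for *ANXA2* in shPAX2, and 0.692% to 6.83% for *ANXA4*, *ANXA5*, *ANXA6*, *ANXA7* and *ANXA11*. *ANXA2* lies on chromosome 15 from 60639333 to 60695082 on the minus strand.

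*ANXA6*, whose core is duplicated, was the most abundant annexin in both groups (chromosome 5, 150480267 to 150537376, minus strand). It stood at 570, 518 and 513 TPM in shEV and at 493, 533 and 547 TPM in shPAX2, which overlapped. The log2 fold change was -0.03 (95% interval -0.18 to 0.13, limma adjusted p 0.787), and it was 0.09 after median-of-ratios scaling. Its interval was narrower than that of *ANXA2*.

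*ANXA11*, a partner of PDCD6 that tethers RNA granules to lysosomes, did not pass (chromosome 10, 81910645 to 81965328, minus strand). It stood at 77.6, 71.2 and 73.8 TPM in shEV and at 66.2, 68.8 and 70.4 TPM in shPAX2. Its groups did not overlap, yet the log2 fold change was -0.11 (95% interval -0.25 to 0.02, limma adjusted p 0.14), close to the median of all genes. The exact two-sided permutation test of *ANXA4*, *ANXA5*, *ANXA7* and *ANXA11* gave p = 0.1 for each, the smallest value that 3 against 3 libraries allow.

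*ANXA9*, an atypical annexin with little calcium binding, was near the limit of detection and was not tested. It stood at 0.204, 0.682 and 0.121 TPM in shEV and at 0.107, 0.203 and 0.393 TPM in shPAX2, from 2 to 11 reads per library. A difference was not detectable at this depth.

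**Figure D3:**
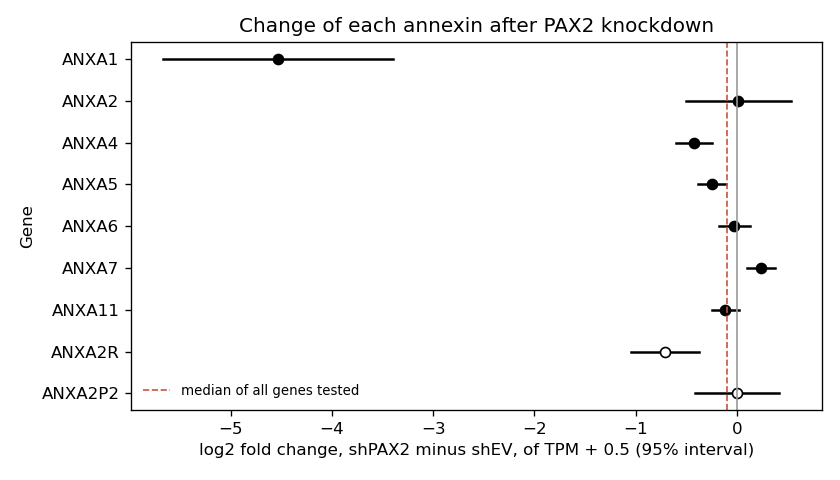
log2 fold change (shPAX2 minus shEV, on log2(TPM + 0.5)) with its 95% interval for 7 annexins (filled) and for the related rows *ANXA2R* and *ANXA2P2* (open); the dashed line is the median of all genes tested, -0.10. *ANXA1* is at -4.54 and was selected for its fall, so its interval is not a test. The other annexins lie between -0.42 and 0.23.

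Of 5 further rows with an *ANXA* symbol, 2 were tested. *ANXA2R*, which encodes a proposed ANXA2 receptor, stood at 2.50, 3.49 and 3.41 TPM in shEV and at 1.60, 1.64 and 1.86 TPM in shPAX2. It fell without overlap (log2 fold change -0.71, SE 0.15, limma adjusted p 0.00483), with *ANXA2R-AS1* annotated on the opposite strand. *ANXA2P2*, a processed pseudogene that can share reads with *ANXA2*, stood at 0.864 to 1.52 TPM in all libraries (log2 fold change -0.0027, limma adjusted p 0.992). *ANXA10*, *ANXA2P1* and *ANXA2P3* stood at 0.139 TPM or less in every library.

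The partners of the annexins were taken from a list of 49 genes by role, of which 45 had a row and 39 were tested. By limma, 16 were lower, 4 were higher and 19 did not pass. The share that passed, 51.3%, was near the background of 42.8% and is not a result about the list. Their median log2 fold change was -0.19. Lower genes made up 80.0% of the partners that passed, beside 71.4% over all genes. They made up 60.0% after median-of-ratios scaling (12 lower, 8 higher) and 65.0% after quantile normalization (13 lower, 7 higher), beside 47.4% and 51.3% over all genes. The share of lower genes thus moved with the scaling, both in the list and over all genes. It rests on few genes in the list, no test set the list against all genes, and it is not a result about the partners. The counts by role below have the same background of 30.5% lower and 12.2% higher, and no role was tested against it. Past the fold threshold were *S100A4* and *DYSF*, lower, and *EGFR*, higher.

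Among the S100 proteins, small calcium sensors that bind annexin N-termini, 2 of 4 were lower. *S100A4*, a partner of ANXA2 tied to cell motility, stood at 625, 383 and 436 TPM in shEV and at 124, 139 and 130 TPM in shPAX2. The groups were apart and 27.2% of the shEV mean remained (log2 fold change -1.85, SE 0.18, limma adjusted p 0.000817). *S100A6*, the most abundant of the 4, stood at 689, 523 and 621 TPM in shEV and at 406, 449 and 393 TPM in shPAX2, and it also fell without overlap (-0.55, SE 0.10, limma adjusted p 0.00299). *S100A10*, the ANXA2 partner, was at 90.0, 116 and 124 TPM in shEV and at 108, 88.5 and 86.6 TPM in shPAX2 and did not pass (-0.21, 95% interval -0.54 to 0.12, limma adjusted p 0.26). *S100A11*, the ANXA1 partner, had a log2 fold change of -0.12 (95% interval -0.24 to 0.0029, limma adjusted p 0.104). *S100A10* and *S100A11* are described here beyond the naming rule, since they bind ANXA2 and ANXA1. The ANXA1 receptors *FPR1*, *FPR2* and *FPR3* had no row and are not analysed here.

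Of 5 tested genes of cell-surface plasminogen activation, the process that the ANXA2 complex serves, 0 passed by limma, 2 had an unadjusted p under 0.05 and 0 passed by voom. After median-of-ratios scaling and after quantile normalization 1 passed as higher. The most abundant, the plasminogen receptor *PLGRKT*, stood at 21.1 to 29.9 TPM over all libraries with overlap (log2 fold change -0.23, limma adjusted p 0.0643). It passed without shPAX2 replicate 1, with an adjusted p of 0.0259.

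Of the penta-EF-hand proteins and ALIX, which bind ANXA7 and ANXA11, 4 were tested, with 1 lower and 1 higher. *PDCD6*, the most abundant, stood at 111, 114 and 114 TPM in shEV and at 94.7, 101 and 101 TPM in shPAX2. It passed as lower (-0.19, SE 0.06, limma adjusted p 0.0214), but not after median-of-ratios scaling (-0.08, adjusted p 0.253) or when shEV replicate 2, shEV replicate 3 or shPAX2 replicate 2 was left out (adjusted p 0.055 to 0.0705).

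Of 10 tested membrane repair genes, 5 were lower, 1 was higher and 4 did not pass, beside 30.5% lower and 12.2% higher over all genes. After median-of-ratios scaling 4 were lower and 2 higher. *DYSF*, dysferlin, a calcium sensor of membrane resealing that binds ANXA1 and ANXA2, stood at 4.89, 4.68 and 5.01 TPM in shEV and at 2.53, 2.04 and 1.82 TPM in shPAX2. It was lower in every shPAX2 library (-1.04, SE 0.13, limma adjusted p 0.000342). Its size was under the fold threshold with a pseudocount of 1 (-0.91), after median-of-ratios scaling (-0.94), after quantile normalization (-0.78) and without shPAX2 replicate 3 (-0.95), while the adjusted p stayed under 0.05. *CAPNS1*, the small calpain subunit and the most abundant of these, did not pass (-0.09, 95% interval -0.23 to 0.05, limma adjusted p 0.258). *AHNAK*, a scaffold of the ANXA2 complex named after its values were seen, stood at 59.9, 53.9 and 48.5 TPM in shEV and at 34.9, 55.0 and 55.0 TPM in shPAX2, with shPAX2 replicate 1 the lowest. Its groups overlapped and it did not pass (-0.19, 95% interval -0.69 to 0.32, limma adjusted p 0.502).

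The only tested cytosolic phospholipase A2 gene, an enzyme class that ANXA1 inhibits, was *PLA2G4B*, which was lower. It stood at 5.72, 4.63 and 4.90 TPM in shEV and at 3.44, 3.15 and 2.62 TPM in shPAX2 (-0.65, SE 0.13, limma adjusted p 0.00386). The gene shares exons with a read-through transcript, so its reads are uncertain.

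The glucocorticoid receptor *NR3C1*, through which *ANXA1* is induced in many cells, was at most 0.0239 TPM in any library. Of its 5 tested inducible genes, 3 were lower and 2 did not pass, beside 30.5% lower over all genes. After median-of-ratios scaling 3 were lower and 1 higher, and after quantile normalization 2 were lower and 1 higher. *TSC22D3* (GILZ), the most abundant, stood at 34.6, 32.7 and 37.2 TPM in shEV and at 35.7, 29.4 and 26.3 TPM in shPAX2, which overlapped (-0.20, limma adjusted p 0.166). Without shPAX2 replicate 1 it passed as lower (-0.32, adjusted p 0.0137).

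Of 6 tested genes that place phosphatidylserine, the ligand of ANXA5, in the outer or inner leaflet, 2 were lower, 1 was higher and 3 did not pass. *TMEM30A*, the subunit that lets flippases return phosphatidylserine to the inner leaflet, rose. It stood at 48.7, 47.8 and 49.4 TPM in shEV and at 79.5, 78.3 and 77.8 TPM in shPAX2, a narrow spread in both groups (0.69, SE 0.05, limma adjusted p 2.12e-05).

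Of 4 kinases that phosphorylate ANXA1 or ANXA2, 2 were lower, 1 was higher and 1 did not pass, and after either rescaling 0 were lower and 1 was higher by limma. *EGFR*, which phosphorylates ANXA1, stood at 5.87, 5.51 and 6.22 TPM in shEV and at 20.2, 20.2 and 22.3 TPM in shPAX2. It rose 3.56-fold with no overlap (log2 fold change 1.75, SE 0.08, limma adjusted p 9.96e-07). *TRPM7*, the most abundant of the 4, passed as lower (-0.20, limma adjusted p 0.0394) but lost the call in 10 of 15 alternative settings, among them the omission of shEV replicate 2 or 3 or of any shPAX2 library.

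**Figure D4:**
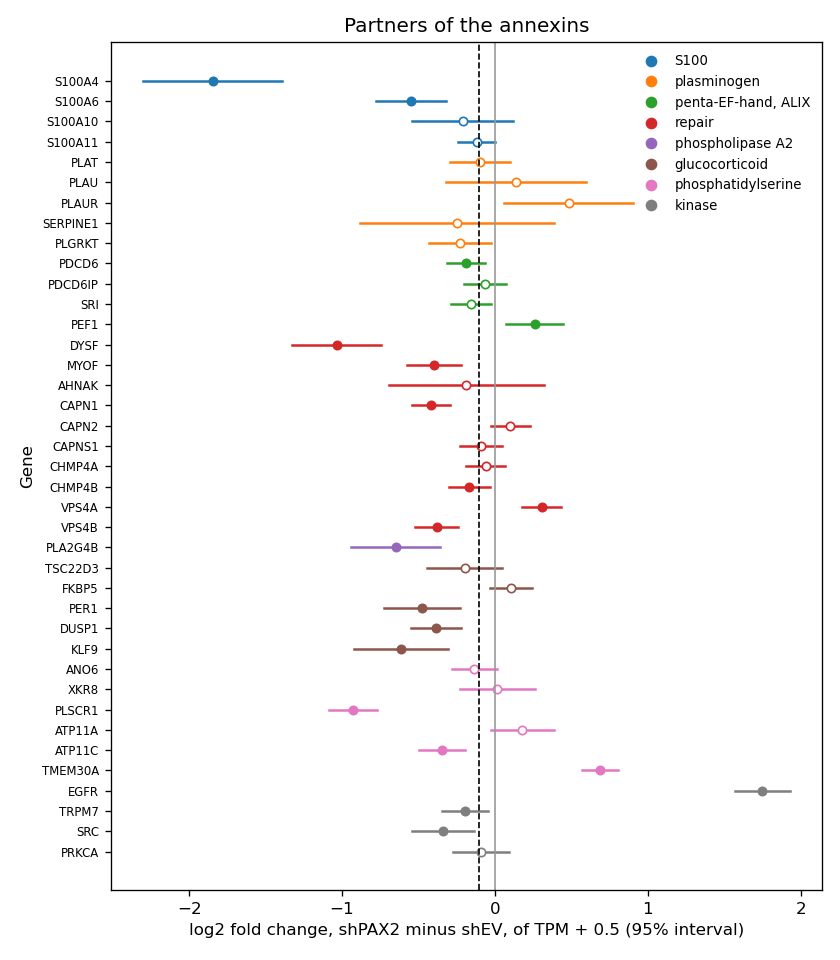
log2 fold change (shPAX2 minus shEV) with its 95% interval for the 39 tested annexin partner genes, coloured by role; filled points passed an adjusted p under 0.05 in limma, open points did not, and the dashed line is the median of all genes tested. *S100A4* at -1.85, *DYSF* at -1.04 and *EGFR* at 1.75 lie farthest from 0.

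The genes around *ANXA1* were examined to see whether the difference reached along chromosome 9. Among the 5 genes of the table on each side, 7 were tested, of which 3 were lower, 1 was higher and 0 passed the fold threshold in limma, beside 30.5%, 12.2% and 4.54% of all genes tested. With 7 genes, counts of 3 and 1 are near these shares and are not a result about the region. *ZFAND5* (-0.22, limma adjusted p 0.0147), *NMRK1* (-0.86, adjusted p 0.0122) and *OSTF1* (-0.41, adjusted p 0.000657) were lower, and *C9orf40* was higher (0.53, adjusted p 0.00171). *FAM108B1* (-0.14), *C9orf85* (-0.15) and *C9orf41* (0.11) did not pass. The nearest of the 7 tested, *ZFAND5*, lay 787 kb from *ANXA1*, and the others lay 1166 to 1918 kb from it. These genes cannot show whether a shorter stretch around *ANXA1* differed.

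The nearest gene with a row and a position, *ALDH1A1*, ends 71.4 kb before *ANXA1* begins and was at most 0.0786 TPM in any library. *TMC1* was at most 0.0346 TPM. *TRPM6*, the nearest on the other side with a row and a position, begins 1552 kb after *ANXA1* ends. It was below the filter at 0.367, 0.354 and 0.231 TPM in shEV and at 0.0303, 0.0516 and 0.119 TPM in shPAX2, without overlap. Of the genes of the table, 94.8% had an annotated position, so unplaced genes were not considered.

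**Figure D5:**
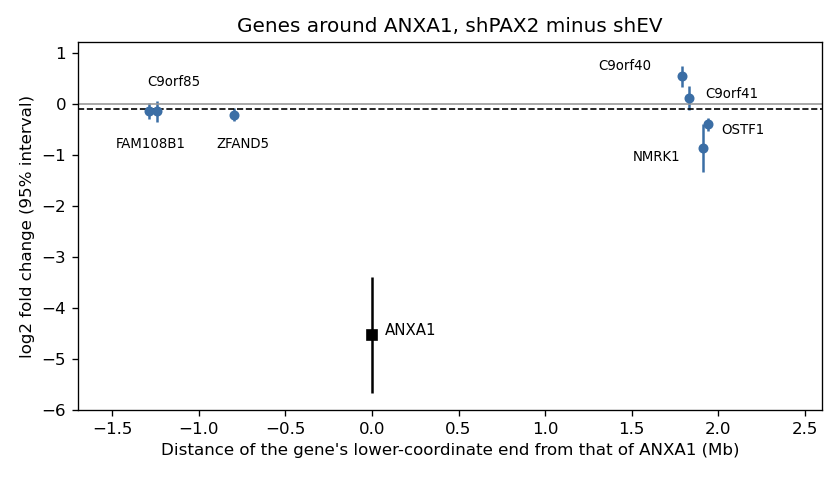
log2 fold change with its 95% interval against distance (Mb) for *ANXA1* (square) and the 7 tested neighbours on chromosome 9 (circles); the dashed line is the median of all genes tested. The neighbours lie between -0.86 and 0.53, beside -4.54 for *ANXA1*, which was selected for its fall, so its interval is not a test.

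The genes with the profile most like that of *ANXA1* were found by Euclidean distance between centred log2(TPM + 0.5) values over the 6 libraries. They were *CTGF* (distance 0.61), *CAMK4* (0.96), *PLK2* (1.11), *MIR548AA1* (1.19) and *KITLG* (1.23). Since they were picked for the same difference, their values are a description.

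*CTGF*, a secreted matricellular protein, stood at 25.4, 15.7 and 12.9 TPM in shEV and at 0.112, 0.538 and 0.481 TPM (4, 17 and 11 reads) in shPAX2. *PLK2*, a polo-like kinase, stood at 119, 94.7 and 95.1 TPM in shEV and at 0.967, 8.91 and 7.87 TPM in shPAX2. As for *ANXA1*, shEV replicate 1 was the highest and shPAX2 replicate 1 the lowest library for both. *CAMK4*, a calmodulin-dependent kinase, stood at 13.3, 14.1 and 15.1 TPM in shEV and at 0.117 to 0.331 TPM (4, 10 and 4 reads) in shPAX2. Replicate 1 was again the lowest in TPM, but replicates 1 and 3 had 4 reads each, so counting error does not separate them. *KITLG*, the ligand of the KIT receptor, stood at 14.9, 13.6 and 14.5 TPM in shEV and at 0.377 to 0.395 TPM in shPAX2. *MIR548AA1*, a short microRNA locus, rested on 3 to 5 recovered reads per shEV library, a lower bound, and was listed at 0 in shPAX2.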

How the data were processed

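RNA-seq of 6 AN3CA libraries (3 shEV, 3 shPAX2) was analysed from the TPM values that the authors deposited. The submitters' processing notes name hg19, bcl2fastq, STAR, Subread, featureCounts and edgeR without roles. The study's methods describe STAR and RSEM for another cell line, so the counting tool and its strand setting for AN3CA are not given in the sources used here. Within each gene the TPM values of the libraries were whole multiples of a common step (relative tolerance 1e-09) in 100% of 17471 genes, which gave whole reads and depth. Recovered reads are a lower bound where the reads of a gene share a common factor, as for a gene detected in a single library. Because TPM values of a library share a fixed total, abundant genes move all others.

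The test was limited to genes that reached 0.5 TPM in 3 or more libraries and used the linear models of limma 3.58.1 (R 4.3.3; moderated variances, trended and robust) with log2(TPM + 0.5) as input, two-sided, with Benjamini-Hochberg adjustment over all genes tested and no covariate. Fold changes on this scale understate the change of low genes. The fit was tested on simulated data. Permutation tests and counting intervals were made in scipy 1.17.1. Positions came from GENCODE release 44 on GRCh37, and promoter windows from RefSeq, matched to GRCh37.

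The members, the partner, marker and motif lists and the tests were chosen with earlier results of these data known. Named were all annexins, *PAX2*, partner genes past an adjusted p of 0.05 and an absolute log2 fold change of 1, the most abundant tested gene of each role, 5 neighbours on each side of *ANXA1* and the 5 genes most like it. Alternatives were other pseudocounts, filters and scalings, other variance settings, a replicate block, voom on the recovered reads, and leaving out each library.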

Additional observations from a re-analysis of the deposited data

How the results depend on the processing

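The log2 fold change of *ANXA1* ran from -4.79 to -4.12 over 15 alternatives, the same as its range when each library was left out. The next counts cover 20 other named genes, which are the tested rows with an *ANXA* symbol, *PAX2* and the partners named by the rule. The neighbours of *ANXA1*, the genes most like it, *S100A10*, *S100A11*, *AHNAK* and *COL1A2* were not in these counts. Of the values of the 20 genes, 260 kept their direction and their side of the threshold, 17 lost and 3 gained the call, and 15 changed sign. The sign changed for genes that had not passed: *ANXA2* (-0.0323 after quantile normalization, -0.14 to 0.22 leaving out a library), *ANXA6* (0.0873 after median-of-ratios scaling, -0.0569 to 0.0229 leaving out a library), *ANXA2P2* (0.0046 with a pseudocount of 0.1, 0.0782 after median-of-ratios scaling, 0.23 after quantile normalization, and -0.18 to 0.10 leaving out a library) and *CAPNS1* (0.0216 after median-of-ratios scaling). *ANXA2R* had an adjusted p of 0.05 after quantile normalization. A filter at a TPM of 5 left 303 genes past both thresholds against 598, since fewer genes were tested. The number past both was 836 with voom on the recovered reads, 769 with a pseudocount of 0.1 and 440 with a pseudocount of 1. Leaving out a library gave 484 to 610 such genes, 2 to 3 annexins other than *ANXA1* and 15 to 23 partner genes past an adjusted p of 0.05, and 2 to 3 partner genes and 0 annexins past both thresholds. Same-numbered libraries deviated together with correlations of -0.05, 0.08 and 0.0014, so the numbers were not taken as pairing. With a replicate block, 588 genes passed both thresholds, 3 annexins other than *ANXA1* and 18 partner genes passed an adjusted p of 0.05, *ANXA1* was at -4.54, and *PLGRKT* gained and *TRPM7* lost the call. Depth limits *ANXA9*, *TRPM6* and *MIR548AA1*, and *CTGF* and *CAMK4* in shPAX2, which rest on few reads.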
